A study of Mus musculus with 20 samples.

Results

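Genes for the proteins of the mitochondrial ribosome were followed from the mouse oocyte to the blastocyst. They were taken as all probe sets annotated with a single gene symbol that starts with Mrps or Mrpl and a digit. This gave 127 probe sets of 74 genes, out of 20380 probe sets and 12393 genes with 1 symbol on the array, a mouse expression array that covers part of the genome (MOE430A). Of the 74 genes, 27 carry a small subunit symbol (Mrps) and 47 a large subunit symbol (Mrpl). Another 3 probe sets that name such a gene together with a second gene were left out. In all, 118 of the 127 probe sets passed the filter on low values, an intensity above 33 on at least 4 arrays, and all 74 genes had at least 1 probe set among them. Where a gene had several, the one with the highest mean log2 level stood for it.

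The samples were 5 stages with 4 arrays each, 20 in all: oocytes, 1-cell, 2-cell and 8-cell embryos, and blastocysts. RNA had been amplified by repeated in vitro transcription, per the labels. The labels name neither the strain, the age of the donors, the culture or collection of the embryos, nor the number pooled per array, and they do not say whether the arrays of a stage came from separate collections. The p-values therefore rest only on how far these samples spread, and that spread may be technical.

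Mitochondria carry their own ribosomes, which translate the few proteins encoded by mitochondrial DNA, all of them core subunits of the respiratory chain and ATP synthase. Every protein of these ribosomes is encoded in the nucleus, made in the cytosol and imported. The small subunit holds the decoding site that reads the mRNA. The large subunit joins amino acids and passes the new chain through an exit tunnel to the inner membrane. Part of the proteins have counterparts in bacterial ribosomes and part are found only in mitochondria. The oocyte stores large numbers of mitochondria and their RNA, and the embryo begins its own transcription mainly at the 2-cell stage in the mouse.

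The sums of the stage markers matched the labels, but not every single marker did. The summed intensity of 9 oocyte markers ran from 35540 to 40810 on the oocyte arrays and from 171 to 232.7 on the blastocyst arrays. The sum of 4 markers of 2-cell activation was highest in 2-cell embryos, at 2607 to 4212. Of these 4, 3 then fell in 8-cell embryos, while Eif1a rose (mean 265.8 to 1010). The sum of 8 blastocyst markers was highest in blastocysts, at 11020 to 13310. Between 8-cell embryos and blastocysts 6 of the 8 rose. The other 2 fell, Gata6 (mean 1055 to 629.8) and Gata4 (94.72 to 50.6). The sums of 6 cumulus and 7 sperm markers stayed between 73.5 and 282.9 at every stage. The oviduct glycoprotein gene Ovgp1 stood at 3105 on array 2 of the 8-cell stage, against 46.5 to 193.5 on the other 3 8-cell arrays, and at 219.6 to 764.6 on the 2-cell arrays. The 18S rRNA probe set read 11010 to 15360 at the 1-cell stage and 143.2 to 1128 at the other stages, and the ratio of the 3' to the 5' probe set of Gapdh was 1.28 ± 0.47 at the 8-cell stage against means of 4.70 to 5.80 elsewhere (SD, n = 4). Arrays of a stage correlated at 0.931 to 0.971 across probe sets, which are not independent replicates. The mean intensity after leaving out 2% of probe sets at each end was 150.1 on every array, so levels are relative to the other RNA on the array. Scaling instead to 18 added hybridization control probe sets shifted the median change of all genes by -1.005, 0.21, -0.55, 1.08 and -0.27 on the log2 scale at the 5 comparisons in the order used here. Centring on the array median shifted it by -0.11 at the 1-cell to 2-cell step and 0.22 at the 8-cell to blastocyst step, and quantile normalization by 0.10 at the latter. All of these are bulk samples, in which fewer cells of a type and less RNA per cell cannot be told apart.

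The family followed a trough. Over oocytes, 1-cell, 2-cell and 8-cell embryos and blastocysts, the median intensity of the 74 genes was 296.9 ± 21.9, 127.4 ± 10.7, 173.5 ± 19.7, 332.6 ± 29.1 and 404.3 ± 36.7 in that order (mean of the array medians ± SD, n = 4 arrays). The array medians ran from 271.6 to 324.6, 118.8 to 143.1, 148.4 to 195.6, 307.4 to 372.4 and 370.9 to 447.7 in the same order. The 1-cell and the 2-cell ranges stood apart from each other and from every other stage, while the 8-cell range overlapped with that of the oocytes and, between 370.9 and 372.4, with that of the blastocysts. The median over all genes tested stayed between 74.0 and 98.2 on every array. In limma's moderated F test, 73 of the 74 genes differed among the stages at a Benjamini-Hochberg adjusted p under 0.05, against 82.0% of all 10251 genes tested. The exception was Mrpl1, a large subunit protein of the stalk that lets tRNAs leave, with an adjusted p of 0.457 for its representative probe set. Its other probe sets did change. One fell at the 1-cell stage (-1.49 ± 0.21, limma, adjusted p = 3.2e-06) and rose at the 8-cell stage (0.67 ± 0.21, adjusted p = 0.0105) and in blastocysts (0.72 ± 0.21, adjusted p = 0.00738), and the other rose at the 8-cell stage (1.03 ± 0.28, adjusted p = 0.00277).

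**Figure D1:**
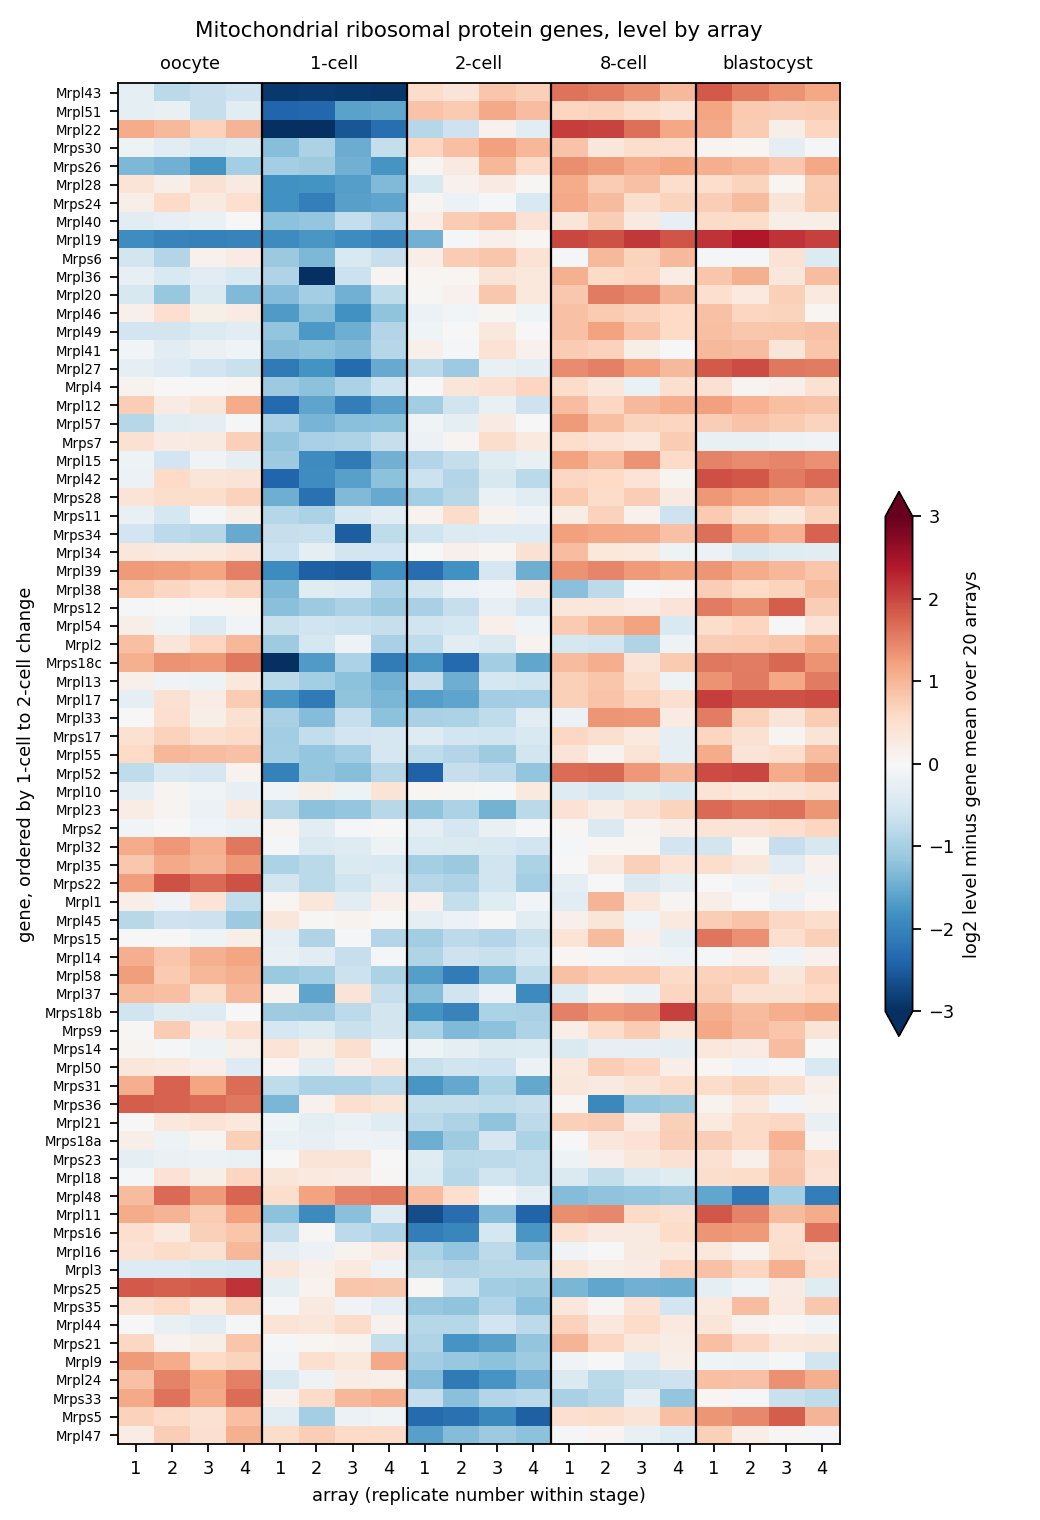
Log2 level of the 74 genes on each of the 20 arrays, shown as the difference from the gene's mean over all arrays (colour scale from -3 to 3), with genes in rows ordered by their 1-cell to 2-cell change and arrays in columns by stage. Most rows are blue in 1-cell or 2-cell embryos and red in 8-cell embryos and blastocysts, and Mrps25, Mrps33, Mrpl48 and Mrps22 are reddest in oocytes.

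**Figure D2:**
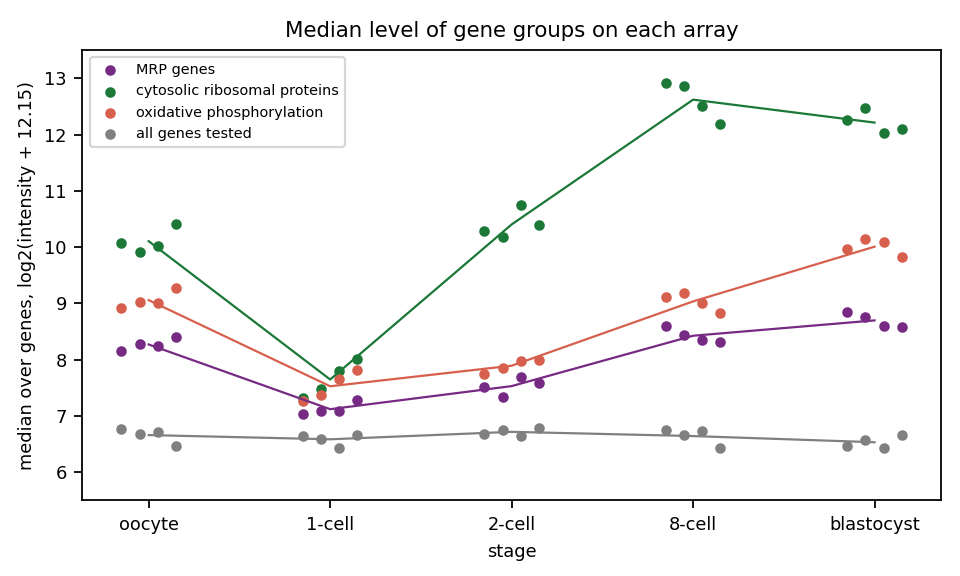
Median log2(intensity + 12.15) on each array (points, 4 per stage) and its stage mean (lines) for the 74 mitochondrial ribosomal protein genes (MRP genes), 43 cytosolic ribosomal protein genes, 76 oxidative phosphorylation genes and all genes tested. The first 3 groups are lowest at the 1-cell stage, while the median of all genes varies little between stages.

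From the oocyte to the 1-cell stage most members fell. Of the 74 genes 49 were lower and 3 higher in limma at an adjusted p under 0.05, where 16.6% of all genes were lower and 15.3% higher. The median change of the members was -1.01 on the log2 scale against 0.09 over all genes. At least 2-fold changes were called lower for 37 members and higher for 0, beside 9.67% and 4.03% of all genes. At an unadjusted p under 0.05, and with no limit on size, limma had 4 members higher. With quantile normalization 48 were lower and 4 higher, beside 16.4% and 15.5% of all genes, and with centring 48 were lower and 2 higher, beside 17.3% and 12.7%. With scaling to the hybridization controls 70 were lower and 0 higher (0 higher at an unadjusted p under 0.05 in limma), but 58.9% of all genes were then lower and 0.0976% higher. The 18S rRNA signal given above moved with this step, and its part in the result was not tested. Changes here and below are on the log2(intensity + 12.15) scale, which understates the change of dim genes, and errors of changes are limma's moderated standard errors.

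The deepest fall was that of Mrpl22, a protein that lines the exit tunnel. Its intensities were 1609, 1443, 1193 and 1510 on the oocyte arrays and 63.9, 49.0, 114.0 and 143.2 on the 1-cell arrays. Every oocyte array stood above every 1-cell array, and the change was -3.88 ± 0.26 (limma, adjusted p = 3.75e-12). Mrpl39, a protein particular to mitochondria that resembles a tRNA synthetase, read 1147, 1130, 1085 and 1343 in oocytes and 117.2, 75.8, 72.3 and 122.0 at the 1-cell stage. These groups did not overlap either, with a change of -3.47 ± 0.24 (adjusted p = 9.62e-12). Mrps18c, one of 3 mitochondrial relatives of a single bacterial small subunit protein, fell from 507.0, 617.2, 600.0 and 731.6 to 14.4, 64.0, 117.6 and 46.1. Its 1-cell values spread widely, from 14.4 to 117.6, yet all lay under the lowest oocyte value, and the change was -3.31 ± 0.31 (adjusted p = 1.99e-09).

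Mrpl12, the stalk protein that recruits translation factors, fell from 359.8 ± 106 to 52.1 ± 15.5 (mean intensity ± SD, n = 4), a change of -2.52 ± 0.21 (adjusted p = 3.12e-10). Mrpl43, a large subunit protein particular to mitochondria, read 93.6, 60.8, 67.0 and 70.6 in oocytes and 5.0, 5.3, 4.9 and 4.7 at the 1-cell stage. All 4 of its 1-cell values lay under the filter threshold of 33, so its change of -2.30 ± 0.19 (adjusted p = 3.23e-10) sets a level against one near the floor of the array. Mrps31, of the head of the small subunit, changed by -2.28 ± 0.19 (adjusted p = 1.95e-10), from 855.0 ± 209 to 162.4 ± 12.5.

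The 3 genes called higher were all of the large subunit, and all 3 lost the call and turned in sign when arrays were scaled to the hybridization controls. Mrpl45, which sits at the tunnel exit and holds the ribosome at the inner membrane, read 129.1, 149.5, 148.5 and 105.6 in oocytes and 303.5, 243.8, 258.5 and 235.3 at the 1-cell stage. The ranges did not overlap, and the change was 0.91 ± 0.16 (limma, adjusted p = 7.64e-05; -0.09 with that scaling). Mrpl3, a core protein near the catalytic centre, changed by 0.60 ± 0.16 (adjusted p = 0.00441; -0.41 with that scaling), and both of its probe sets were called. Mrpl44, which has a ribonuclease fold, changed by 0.51 ± 0.15 (adjusted p = 0.00971; -0.49 with that scaling). With centring Mrpl44 also missed the threshold (0.45, adjusted p = 0.0754).

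**Figure D3:**
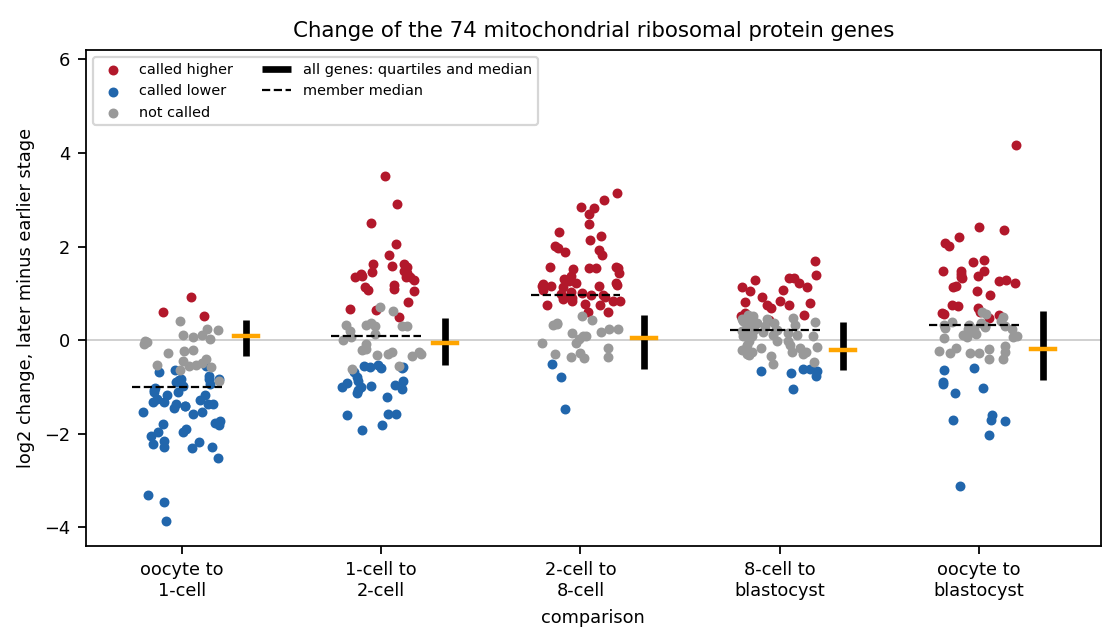
Log2 change of the 74 genes in the 5 comparisons (points: called higher, called lower or not called at an adjusted p under 0.05), with the members' median (dashed) and, beside each, the quartiles and median of all genes tested. The member median is -1.01 from oocyte to 1-cell, 0.09 from 1-cell to 2-cell, 0.97 from 2-cell to 8-cell, 0.22 from 8-cell to blastocyst and 0.32 from oocyte to blastocyst, and it turns to -0.01 and -0.02 at the 1-cell to 2-cell step with quantile normalization and with centring.

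From the 1-cell to the 2-cell stage the family split. Of the 74 genes 27 were higher and 24 lower, with 22.0% and 22.7% of all genes called in those directions. At least 2-fold, 23 members were higher and 11 lower, beside 14.6% and 12.5% of all genes. The median of the members was 0.09 and that of all genes -0.07. With scaling to the hybridization controls the split was 27 higher and 11 lower (20.9% and 11.7% of all genes), so that 71.0% of the called members were higher instead of 52.9%. The mean 18S rRNA signal went from 12670 ± 1880 to 638.7 ± 116 at this step, and the mean of Ovgp1 went from 74.2 ± 26.5 to 494.9 ± 242 (SD, n = 4), and the part of either in the result was not tested. None of the 51 genes called under the authors' scaling changed sign under any of the 3 other scalings.

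The steepest rise was that of Mrpl43, from the 1-cell values near 5 given above to 173.2, 152.8, 214.8 and 197.2 at the 2-cell stage. All 2-cell values were above the highest oocyte value of 93.6, and the change from the 1-cell stage was 3.51 ± 0.19 (limma, adjusted p = 1.61e-14). Mrpl51, another protein particular to the mitochondrial large subunit, read 135.5, 138.5, 240.7 and 251.3 at the 1-cell stage and 1384, 1328, 1689 and 1460 at the 2-cell stage. The change was 2.91 ± 0.18 (adjusted p = 2.24e-13), and the 2-cell arrays were above all oocyte arrays, which lay between 467.8 and 647.7. The second probe set of Mrpl51 did not show this rise and changed by -0.18. Mrpl22 recovered part of its loss, to 399.0, 476.1, 798.0 and 576.5, a change of 2.51 ± 0.26 (adjusted p = 4.57e-09).

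Mrps30, which carries a small subunit symbol but is located in the large subunit, read 114.4, 145.2, 96.0 and 174.5 at the 1-cell stage and 467.6, 558.7, 700.2 and 594.4 at the 2-cell stage. The 2-cell arrays were the highest of all stages in mean, with a change of 2.05 ± 0.18 (adjusted p = 2.08e-10). Mrps26, a small subunit protein particular to mitochondria, changed by 1.81 ± 0.20 (adjusted p = 2.12e-08), and Mrps24, a counterpart of a bacterial protein at the mRNA entry, by 1.62 ± 0.18 (adjusted p = 1.89e-08).

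Among the genes that fell, Mrpl47, a large subunit protein at the tunnel exit, read 454.6, 521.1, 470.4 and 468.2 at the 1-cell stage and 92.1, 117.2, 139.4 and 125.4 at the 2-cell stage. It was not called at the step before (-0.01 ± 0.19), and its change here was -1.92 ± 0.19 (limma, adjusted p = 2.36e-09), without overlap. Mrps5, a small subunit protein near the mRNA entry, stood at 54.6, 29.6, 62.8 and 66.7 and then at 5.1, 5.7, 10.0 and 3.4. Its 2-cell values were all under the filter threshold, and the change was -1.82 ± 0.22 (adjusted p = 1.01e-07). Mrps33, a small subunit protein particular to mitochondria, fell from 665.6, 906.6, 1215 and 1311 to 373.0, 245.4, 326.6 and 341.2, a change of -1.60 ± 0.23 (adjusted p = 1.34e-06). Mrpl24, Mrpl9 and Mrps21 followed with changes of -1.59 ± 0.20, -1.58 ± 0.20 and -1.22 ± 0.23.

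The promoters of the 3 largest rises and the 3 largest falls at this step are shown because these genes moved in opposite directions as embryonic transcription began. They are the 250 bases before the annotated start, from RefSeq on GRCm38.p6, written 5' to 3' on the gene's strand. Capitals mark matches, on either strand, to the letters CGCATGCG (core of the NRF1 motif), CCGGAAG (core of the motif of ETS factors such as GABPA), GATGGCGG (YY1), GGGCGG (the GC box of SP1) and TATAAA (the TATA box). The SP1 letters and their reverse complement are also found inside longer GC-rich runs, and the motifs may overlap. Mrpl43 lies on the minus strand at chr19:45006443-45006692, Mrpl51 on the plus strand at chr6:125191950-125192199, Mrpl22 on the plus strand at chr11:58171414-58171663, Mrpl47 on the minus strand at chr3:32736756-32737005, Mrps5 on the plus strand at chr2:127587176-127587425 and Mrps33 on the minus strand at chr6:39810937-39811186.
Mrpl43: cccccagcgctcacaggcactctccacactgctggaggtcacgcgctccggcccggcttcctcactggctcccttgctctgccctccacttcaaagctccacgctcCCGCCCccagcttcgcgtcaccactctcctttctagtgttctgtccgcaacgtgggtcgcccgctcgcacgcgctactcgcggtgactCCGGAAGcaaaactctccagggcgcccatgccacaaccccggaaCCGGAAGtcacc
Mrpl51: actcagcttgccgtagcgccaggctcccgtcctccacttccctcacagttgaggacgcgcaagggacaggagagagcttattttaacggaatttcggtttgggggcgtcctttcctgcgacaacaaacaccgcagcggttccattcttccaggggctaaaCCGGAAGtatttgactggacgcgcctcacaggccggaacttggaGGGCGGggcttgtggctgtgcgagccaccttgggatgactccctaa
Mrpl22: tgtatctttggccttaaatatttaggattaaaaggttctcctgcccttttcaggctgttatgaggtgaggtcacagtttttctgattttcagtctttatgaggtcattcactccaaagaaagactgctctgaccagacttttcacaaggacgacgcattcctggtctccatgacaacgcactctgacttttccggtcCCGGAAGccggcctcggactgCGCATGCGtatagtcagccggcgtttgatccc
Mrpl47: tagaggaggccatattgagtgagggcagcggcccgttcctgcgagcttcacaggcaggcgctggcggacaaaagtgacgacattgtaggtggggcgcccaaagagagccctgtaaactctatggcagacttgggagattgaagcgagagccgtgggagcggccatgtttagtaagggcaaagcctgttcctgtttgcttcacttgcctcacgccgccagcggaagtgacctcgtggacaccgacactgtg
Mrps5: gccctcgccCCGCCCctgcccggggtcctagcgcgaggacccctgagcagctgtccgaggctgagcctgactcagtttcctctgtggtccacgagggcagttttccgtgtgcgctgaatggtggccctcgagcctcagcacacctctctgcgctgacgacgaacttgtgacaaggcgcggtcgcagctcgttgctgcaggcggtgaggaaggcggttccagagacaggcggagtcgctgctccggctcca
Mrps33: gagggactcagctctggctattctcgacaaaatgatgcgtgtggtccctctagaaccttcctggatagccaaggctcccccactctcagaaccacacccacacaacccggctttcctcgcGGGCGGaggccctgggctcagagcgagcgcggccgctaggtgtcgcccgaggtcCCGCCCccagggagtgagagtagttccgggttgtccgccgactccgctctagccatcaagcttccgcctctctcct
The 3 promoters of rising genes each held the ETS letters, with 2 copies for Mrpl43, and that of Mrpl22 also held the NRF1 letters. The windows of Mrps5 and Mrps33 held only GC box letters, and none of the 5 motifs was found in that of Mrpl47. The wider set did not show such a division. Of 23 windows of genes higher at the 2-cell stage 6 held the ETS letters and 2 the NRF1 letters, and of 27 windows of genes lower there 6 and 2 did. NRF1 and the ETS factor GABPA are known as activators of nuclear genes for mitochondrial proteins.

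Over all members with an entry, 71 windows of 65 genes, the ETS letters were in 16 windows (22.5%), against 6.91% of all 32851 windows of that length and 8.98% of those of protein-coding genes. The NRF1 letters were in 7 (9.86%, against 1.55% and 2.06%). The GC box letters were in 37 (52.1%, against 32.7% and 42.6%), the YY1 letters in 1 (1.41%, against 0.874% and 1.05%) and the TATA letters in 5 (7.04%, against 12.4% and 11.6%). A match is a stretch of letters in the window and not a binding site. Windows of 1 gene can overlap.

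**Figure D4:**
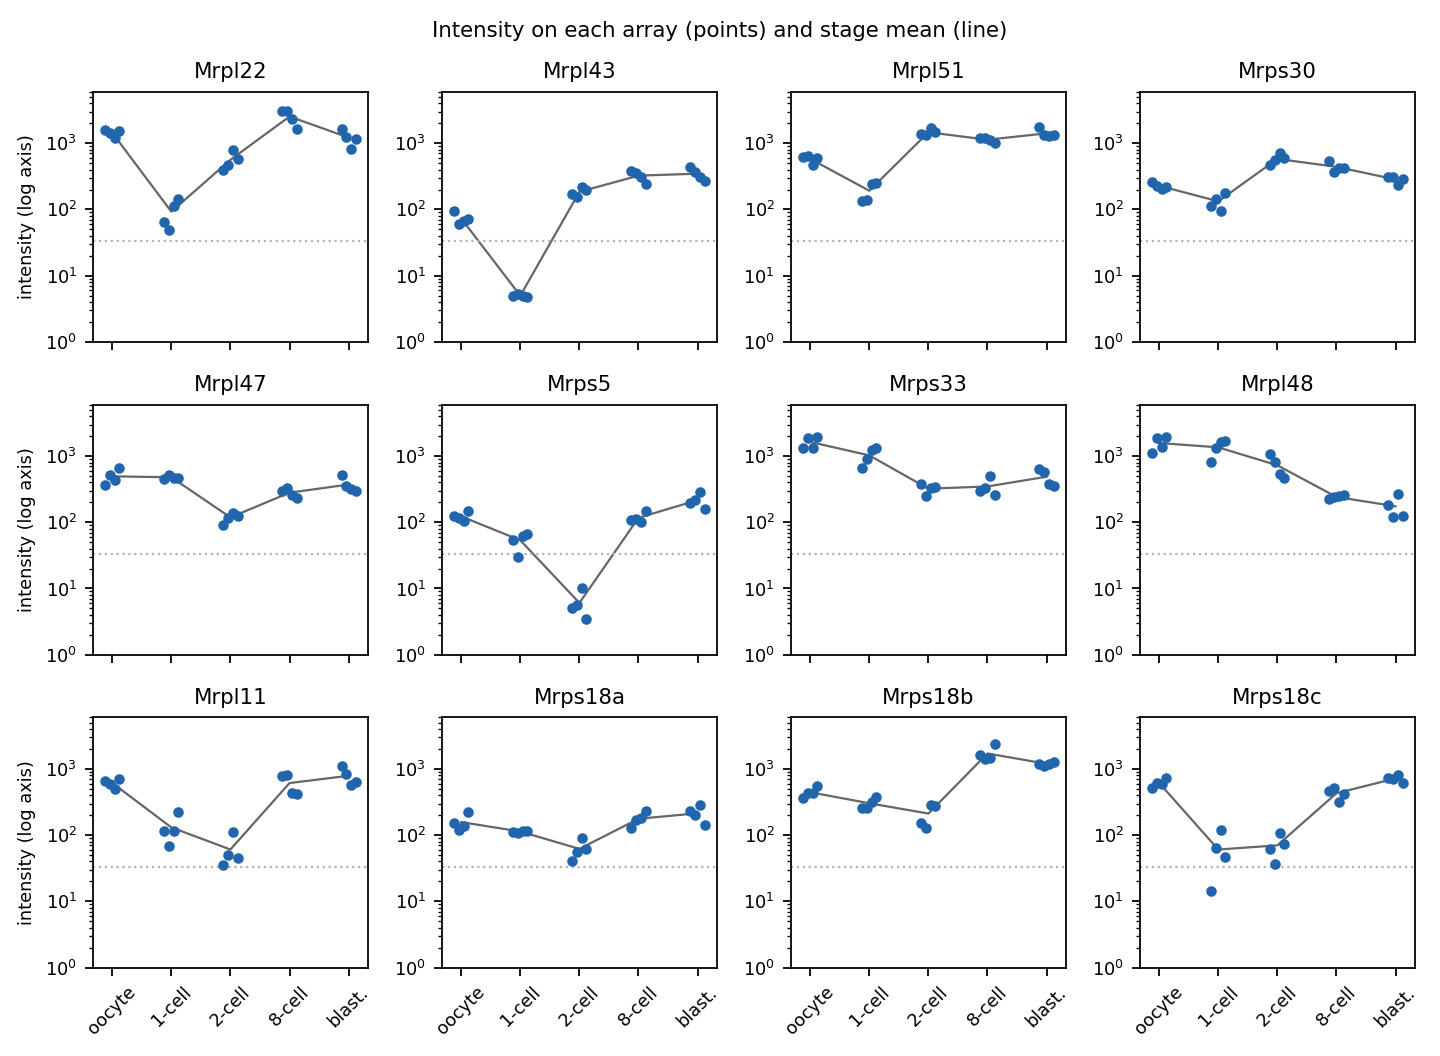
Intensity on each array (points, 4 per stage, log axis) and the stage mean (line) of 12 genes, with the filter threshold of 33 dotted. Mrpl43 drops to about 5 at the 1-cell stage and Mrps5 to between 3.4 and 10.0 at the 2-cell stage, Mrpl48 declines from oocyte to blastocyst, and the 1-cell means of Mrps18a, Mrps18b and Mrps18c are 113.4, 303.0 and 60.5 (no difference between their changes passed after adjustment).

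From the 2-cell to the 8-cell stage most members rose. Of the 74 genes 51 were higher and 3 lower, where 22.2% and 25.7% of all genes were called. At least 2-fold, 35 were higher and 1 lower, beside 11.9% and 16.7% of all genes. The median of the members was 0.97 against 0.04 over all genes. With scaling to the hybridization controls 25 were higher and 8 lower (7.32% and 35.1% of all genes), so that 75.8% of the called members were higher instead of 94.4%, and no gene called under the authors' scaling changed sign. The ratio of Gapdh probe sets and, on array 2, the level of Ovgp1 given above stood apart at the 8-cell stage. Without array 2 the counts were 52 higher and 3 lower, and the part of the Gapdh ratio was not tested.

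Mrpl11, a protein at the base of the stalk, had the largest rise. It read 35.7, 50.3, 111.5 and 45.2 at the 2-cell stage and 785.3, 806.8, 440.3 and 415.3 at the 8-cell stage. The ranges were far apart, with a change of 3.14 ± 0.29 (limma, adjusted p = 7.31e-10), and the 8-cell mean of 611.9 ± 213 was close to the oocyte mean of 614.6 ± 84.9. This probe set is of a kind that can bind related transcripts, and the 3 probe sets of Mrpl11 rose by 1.21 to 3.14. Mrps18b, another relative of that bacterial protein, rose from 153.5, 129.5, 284.0 and 280.0 to 1625, 1401, 1462 and 2360, a change of 2.99 ± 0.21 (adjusted p = 4.34e-12). Its 8-cell values were also above all oocyte values, which ended at 550.4.

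Mrpl39 returned to its oocyte level, with 86.3, 123.5, 326.3 and 161.1 at the 2-cell stage and 1210, 1306, 1149 and 1079 at the 8-cell stage (2.84 ± 0.24, limma, adjusted p = 1.33e-10). Mrps5 rose from its 2-cell values of at most 10.0 to 109.0, 111.0, 99.6 and 147.3 (2.82 ± 0.22, adjusted p = 2.89e-11). Its second probe set changed by 0.02 at this step. Mrpl52, particular to the mitochondrial large subunit, rose by 2.69 ± 0.31 (adjusted p = 3.07e-08) and Mrps18c by 2.48 ± 0.31 (adjusted p = 1.15e-07).

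The 3 genes that fell were Mrpl48, Mrps25 and Mrpl10. Mrpl48, particular to the mitochondrial large subunit, read 1079, 812.4, 541.2 and 469.4 at the 2-cell stage and 223.2, 237.5, 245.8 and 257.8 at the 8-cell stage. The groups did not overlap, and the change was -1.47 ± 0.26 (limma, adjusted p = 2.91e-05), called in both of its probe sets. Mrps25, particular to the mitochondrial small subunit, changed by -0.78 ± 0.23 (adjusted p = 0.00729). Without array 1 of the 2-cell stage its change was -0.54 and missed the threshold (adjusted p = 0.0543). Mrpl10, the stalk protein that carries copies of Mrpl12, changed by -0.52 ± 0.15 (adjusted p = 0.00639), from 339.6 ± 34.3 to 232.8 ± 11.4.

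From the 8-cell stage to the blastocyst 22 members were higher and 7 lower, where 20% and 26.4% of all genes were called, and 45 members were not called. At least 2-fold, 10 were higher and 1 lower, beside 11.0% and 9.16% of all genes. The median of the members was 0.22 against -0.22 over all genes. The ratio of the 3' to the 5' probe set of beta-actin also moved here, from 3.67 ± 0.23 to 1.99 ± 0.33 (SD, n = 4), and that of Gapdh from 1.28 ± 0.47 to 5.80 ± 1.96. The part of these ratios was not tested. Without array 2 of the 8-cell stage the counts were 20 higher and 5 lower. The scaling moved the counts. Centring gave 30 higher and 1 lower (24.8% and 14.8% of all genes), and the hybridization controls gave 64 higher and 0 lower (53.3% and 1.6% of all genes, and 65 and 0 members at an unadjusted p under 0.05), so that the share of called members that were higher went from 75.9% to 96.8% and 100%. Quantile normalization gave 16 higher and 8 lower (20.7% and 22.1% of all genes), and the median of the members was then 0.12 and stood 0.23 above that of all genes, against 0.44 with the deposited values.

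Mrpl24, a large subunit protein with a bacterial counterpart, rose most. It read 361.9, 277.7, 308.6 and 320.2 at the 8-cell stage and 934.7, 924.1, 1308 and 1069 in blastocysts, without overlap (1.69 ± 0.20, limma, adjusted p = 8.92e-08). Mrpl2, near the catalytic centre, rose from 323.0, 315.6, 246.9 and 419.6 to 798.9, 809.1, 847.3 and 993.8 (1.39 ± 0.21, adjusted p = 5.56e-06). Mrps25 turned from its 8-cell low of 97.7, 84.9, 93.7 and 90.7 to 223.2, 253.5, 325.5 and 210.3 (1.33 ± 0.23, adjusted p = 4.52e-05). All of these were under every oocyte array, the lowest of which was at 972.0.

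Mrpl42 rose by 1.33 ± 0.21 (limma, adjusted p = 1.03e-05), Mrpl17 by 1.28 ± 0.22 (adjusted p = 2.63e-05) and Mrpl38 by 1.23 ± 0.27 (adjusted p = 0.000565). In each of these 3 genes 1 of 2 probe sets was called, and with the mean over probe sets Mrpl42 and Mrpl38 missed the threshold (0.50 and 0.43, adjusted p = 0.0701 and 0.0997). Mrpl17 read 359.6, 395.4, 347.3 and 301.3 at the 8-cell stage and 943.1, 832.9, 836.3 and 857.9 in blastocysts. The blastocyst arrays were the highest of all 20 for this gene.

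The 7 genes that fell were Mrpl22, Mrpl20, Mrps7, Mrpl34, Mrps6, Mrpl50 and Mrps30, and each of the 7 turned in sign, with no call, when arrays were scaled to the hybridization controls. Mrpl22 went from 3109, 3027, 2327 and 1664 to 1627, 1263, 830.9 and 1155. The lowest 8-cell value was just above the highest blastocyst value, and the change was -1.04 ± 0.26 (limma, adjusted p = 0.00196; 0.04 with that scaling). The other 6 changed by -0.61 to -0.76, and all but Mrpl22 also missed the threshold with centring. Mrps6 (adjusted p = 0.0463) lost its call when any of 8 single arrays was left out, at adjusted p up to 0.135, and Mrpl50 (adjusted p = 0.0172, or 0.245 with the mean over its probe sets) when array 2 or 3 of the 8-cell stage or array 4 of the blastocysts was left out, at adjusted p up to 0.0596.

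Between the ends of the series, 30 of the 74 genes were higher in blastocysts than in oocytes and 12 lower, where 26.2% and 33.6% of all genes were called. At least 2-fold, 21 were higher and 8 lower, beside 18.2% and 21.9% of all genes. The median of the members was 0.32 against -0.20 over all genes, and 0.06 for the members with scaling to the hybridization controls, where 22 were higher and 12 lower beside 17.4% and 34.8% of all genes. This comparison uses the same oocyte and blastocyst arrays as those above.

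Mrpl19, a large subunit protein with a bacterial counterpart, differed most. It read 7.1, 5.3, 5.0 and 5.3 in oocytes and 6.8, 8.9, 6.7 and 5.3 at the 1-cell stage, all under the filter threshold. It then read 13.7, 55.4, 66.5 and 61.4 at the 2-cell stage and 271.6, 251.0, 292.5 and 249.0 at the 8-cell stage. In blastocysts it stood at 305.2, 357.7, 302.8 and 280.9, a difference from oocytes of 4.18 ± 0.25 (limma, adjusted p = 5.67e-14). Its probe set can bind related transcripts, and the second probe set differed by 3.39. Mrps26 differed by 2.41 ± 0.20, Mrps34 by 2.35 ± 0.29, Mrpl27, which reaches the catalytic centre, by 2.21 ± 0.20, Mrpl43 by 2.07 ± 0.19 and Mrpl52 by 2.01 ± 0.31.

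Mrpl48 was the member that lost most. Its oocyte arrays read 1106, 1876, 1380 and 1938 and its blastocyst arrays 182.5, 118.6, 271.4 and 125.4, a difference of -3.12 ± 0.26 (limma, adjusted p = 3.86e-11). Its stage means went down in every step, although the oocyte to 1-cell and 8-cell to blastocyst steps were not called. Mrps25 differed by -2.03 ± 0.23, Mrps33 by -1.74 ± 0.23, Mrps22, of the small subunit body, by -1.71 ± 0.16, Mrpl32 by -1.70 ± 0.18 and Mrps36, which is also described as a subunit of the 2-oxoglutarate dehydrogenase complex, by -1.60 ± 0.32. Of these 6 genes 4 carry small subunit symbols. Over all 12 genes called lower, 6 were of the 27 with a small subunit symbol and 6 of the 47 with a large subunit symbol.

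Courses over the 4 steps differed from gene to gene, with 29 different sequences of calls. The most common, in 10 genes, was a fall at the 1-cell stage, a rise at the 2-cell stage, a rise at the 8-cell stage and no call after that, as in Mrpl12, Mrpl28, Mrpl39, Mrpl43 and Mrps24. Of the 49 genes that fell at the 1-cell stage, 21 rose at the 2-cell stage, 12 fell again and 16 were not called there. These 3 groups then rose at the 8-cell stage in 14, 10 and 12 cases, 36 in all. Of the 24 genes lower at the 2-cell stage 19 rose at the 8-cell stage, and of the 27 higher there 17 did. A rise at the 8-cell stage was followed by another in blastocysts in 13 genes, among them Mrps12, Mrpl17 and Mrpl23. With scaling to the hybridization controls the rise of Mrps12 at the 8-cell stage was 0.38 and missed the threshold (limma, adjusted p = 0.358). The adjacent steps share the arrays of the stage between them, so that a high or low value there enters both. Courses were not counted over all genes, so these counts do not set the members apart from other genes.

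By mean log2 level, 34 of the 74 genes were highest in blastocysts, 19 in 8-cell embryos, 17 in oocytes, 4 in 2-cell embryos and 0 in 1-cell embryos. Among all genes the shares were 17.6%, 25.7%, 16.2%, 14.9% and 25.7% in that order. The lowest stage was the 1-cell stage in 36 members and the 2-cell stage in 31, beside 18.9% and 12.8% of all genes. Blastocysts were the lowest stage of 34.4% of all genes and of 1 member, Mrpl48.

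By place in the ribosome, the classes shared the fall at the 1-cell stage and the rise at the 8-cell stage. Only genes with an Mrps or Mrpl symbol were counted. Dap3, Ptcd3 and Chchd1 of the small subunit and Gadd45gip1 of the large one are left out here. Small subunit proteins with a bacterial counterpart fell in 9 of 15 genes at the first step, those particular to mitochondria in 6 of 10, large subunit proteins with a counterpart in 20 of 29 and those particular to mitochondria in 14 of 20. Of all genes 16.6% fell. At the 8-cell stage 10 of 15, 7 of 10, 21 of 29 and 13 of 20 rose, beside 22.2% of all genes. At the 2-cell stage, 6 rose and 5 fell of the 15, 1 rose and 6 fell of the 10, 10 rose and 8 fell of the 29, and 10 rose and 5 fell of the 20. The one riser among the 10 was Mrps26. From oocyte to blastocyst the 10 small subunit genes particular to mitochondria had 4 higher and 5 lower, with Mrps36 among the lower. The 20 large subunit genes particular to mitochondria had 9 higher and 1 lower, and of all genes 26.2% were higher and 33.6% lower. The 4 genes left out had 2 higher, Ptcd3 and Chchd1, and 2 lower, Dap3 and Gadd45gip1, so the counts depend on which genes a class holds. Differences between classes were not tested.

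The 3 relatives of 1 bacterial protein, of which Mrps18a is located in the large subunit, were compared over the 4 steps. Mrps18c fell at the 1-cell stage, while Mrps18a (-0.40 ± 0.23, limma, adjusted p = 0.206) and Mrps18b (-0.54 ± 0.21, adjusted p = 0.0586) were not called there, though Mrps18b passed when any of 6 single arrays was left out, and both were called with scaling to the hybridization controls (-1.40 and -1.54). Mrps18a read 150.0, 117.7, 138.6 and 222.6 in oocytes and 113.1, 109.4, 116.1 and 114.9 at the 1-cell stage, and its lowest oocyte value was just above its highest 1-cell value. Mrps18b read 367.2, 431.2, 427.2 and 550.4 in oocytes and 259.8, 254.0, 319.9 and 378.5 at the 1-cell stage, with slight overlap. The change of Mrps18a was 2.92 ± 0.50 above that of Mrps18c, and that of Mrps18b 2.78 ± 0.45 above it. Errors of such differences between genes are plain standard errors, from the spread of the genes' log2 ratio over the arrays, and not limma's. At the 8-cell stage the rise of Mrps18a, 1.36 ± 0.23, differed by -1.63 ± 0.24 from that of Mrps18b and by -1.11 ± 0.33 from that of Mrps18c. From the 8-cell stage to the blastocyst the change of Mrps18b differed by -1.23 ± 0.25 from that of Mrps18c. Each of these 5 differences had an exact two-sided permutation p of 0.0286, the smallest that 4 arrays against 4 allow, and none of the 12 differences computed between these genes passed after adjustment (0.0686). The rise of Mrps18c from the 8-cell stage to the blastocyst (0.74 ± 0.31, adjusted p = 0.0499) lost its call when most single arrays were left out, at adjusted p up to 0.144, and with quantile normalization (0.61, adjusted p = 0.136).

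Among the other proteins chosen for their place, the 3 stalk proteins did not move alike. Mrpl11 and Mrpl12 both fell at the 1-cell stage and rose at the 8-cell stage, but Mrpl12 rose at the 2-cell stage (1.28 ± 0.21, limma, adjusted p = 1.09e-05) where Mrpl11 fell (-0.97 ± 0.29, adjusted p = 0.00788, 0.0531 without array 4 of the 1-cell stage and 0.057 with scaling to the hybridization controls). Mrpl10 stayed between 219.6 and 447.5 on all 20 arrays. It fell at the 8-cell stage and then rose by 0.83 ± 0.15 (adjusted p = 9.19e-05). Mrps12, which forms part of the decoding site, fell from 166.0 ± 5.27 in oocytes to 70.3 ± 7.02 at the 1-cell stage (-1.12 ± 0.19, adjusted p = 5.43e-05) and reached 460.7 ± 135 in blastocysts. Mrpl23, at the tunnel exit, fell by 1.12 at the 1-cell stage, changed by -0.08 at the 2-cell stage and rose by 1.54 and 1.13 at the last 2 steps (SE 0.18 each). Mrpl45 at the same exit did not share the fall, and was 1.48 ± 0.16 higher in blastocysts than in oocytes (adjusted p = 8.75e-09). Mrpl58, a release factor built into the large subunit, fell by 1.96 ± 0.21 at the 1-cell stage (adjusted p = 1.98e-08) and rose by 2.22 ± 0.21 at the 8-cell stage (adjusted p = 6.22e-10).

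Mitoribosome proteins without such a symbol were measured for 4 genes. The means of Dap3, a GTP-binding protein of the small subunit, over the 5 stages in order were 1008 ± 59.3, 994.5 ± 262, 189.3 ± 29.5, 93.2 ± 39.7 and 513.6 ± 167 (intensity ± SD, n = 4). It was lower at the 2-cell stage (-2.29 ± 0.25, limma, adjusted p = 1.33e-08) and again at the 8-cell stage (-1.02 ± 0.25, adjusted p = 0.00127), where 51 of the 74 members rose. It then rose by 2.37 ± 0.25 (adjusted p = 1.93e-08). Among the members Mrps25 had the same calls at these steps, after a fall at the 1-cell stage. Gadd45gip1, of the large subunit, fell by 1.78 ± 0.26 at the 1-cell stage (adjusted p = 5.91e-06), with means of 114.3 to 150.7 at the 4 embryonic stages against 534.2 ± 126 in oocytes. With the mean over its probe sets the change at the 1-cell stage was -0.49 and missed the threshold (adjusted p = 0.137). Chchd1 fell by 1.40 ± 0.24 at the 1-cell stage and rose by 1.22 ± 0.24 at the 8-cell stage, which with scaling to the hybridization controls was 0.67 and missed the threshold (limma, adjusted p = 0.0939). Ptcd3, which binds RNA, rose at the last step by 0.67 ± 0.19 (adjusted p = 0.00646) and was 1.20 ± 0.19 higher in blastocysts than in oocytes, and at the first step it stood next to the threshold (0.49 ± 0.19, adjusted p = 0.0542, or 0.0186 with quantile normalization).

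Of 17 genes for assembly and rRNA modification, 3 (17.6%, against 16.6% of all genes) fell between oocytes and 1-cell embryos and 0 rose. In 2-cell embryos 3 were then higher and 6 lower (17.6% and 35.3%, against 22.0% and 22.7% of all genes). By the 8-cell stage 6 rose and 3 fell (35.3% and 17.6%, against 22.2% and 25.7%). Blastocysts had 3 higher and 2 lower than 8-cell embryos (17.6% and 11.8%, against 20% and 26.4%). Nsun4, which methylates the small subunit rRNA, fell at the 8-cell stage, from 1251 ± 337 to 59.1 ± 23.1 (-4.17 ± 0.20, limma, adjusted p = 1.87e-15). Tfb1m, which methylates the same rRNA, fell at the 1-cell stage (-1.53 ± 0.22), and Rpusd4, a pseudouridine synthase, at the 2-cell stage (-2.37 ± 0.23). Noa1, a GTPase of assembly, rose at the 2-cell stage (1.76 ± 0.25).

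Of 7 translation factors 3 fell and 1 rose between oocytes and 1-cell embryos (42.9% and 14.3%, against 16.6% and 15.3% of all genes). In 2-cell embryos 2 were then lower (28.6%, against 22.7%) and 0 higher. By the 8-cell stage 3 rose (42.9%, against 22.2%) and 0 fell. Blastocysts had 4 higher than 8-cell embryos (57.1%, against 20%) and 0 lower. The elongation factor Tufm followed the family, with means of 60.2, 11.4, 27.8, 171.3 and 237.8 over the 5 stages, of which the 1-cell and 2-cell means lay under the filter threshold. The elongation factor Gfm1 went the other way with the deposited values, with a rise of 0.75 ± 0.16 at the 1-cell stage and a fall of 1.66 ± 0.16 at the 2-cell stage. Scaling to the hybridization controls shifted the median of all genes by -1.005 at the 1-cell step, which is more than this rise. Of 10 mitochondrial aminoacyl-tRNA synthetase genes 4 fell and 0 rose between oocytes and 1-cell embryos, beside 16.6% and 15.3% of all genes. In 2-cell embryos 4 were then higher and 1 lower, beside 22.0% and 22.7%. By the 8-cell stage 4 rose and 2 fell, beside 22.2% and 25.7%. Blastocysts had 5 higher and 2 lower than 8-cell embryos, beside 20% and 26.4%. Hars2 was 3.01 ± 0.30 higher and Fars2 3.18 ± 0.25 lower in blastocysts than in oocytes. Of 13 genes for mitochondrial DNA maintenance and transcription, 8 were higher and 3 lower in blastocysts than in oocytes (61.5% and 23.1%, against 26.2% and 33.6% of all genes). Ssbp1, which coats single-stranded mitochondrial DNA, fell by 3.02 ± 0.23 at the 1-cell stage and rose by 3.38 ± 0.23 at the 2-cell stage.

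Both larger groups set beside these genes had their lowest median at the 1-cell stage as well. Of 76 subunit genes of oxidative phosphorylation, the complexes to which the products of mitochondrial translation belong, 56 fell and 3 rose at the 1-cell stage, 32 rose and 16 fell at the 2-cell stage, 58 rose and 2 fell at the 8-cell stage, and 51 rose and 2 fell in blastocysts. Their medians were -1.41, 0.31, 1.22 and 0.85, and they kept their signs under the 3 other scalings. Of 43 genes for cytosolic ribosomal proteins 37 fell at the 1-cell stage, 39 rose and 1 fell at the 2-cell stage and 42 rose at the 8-cell stage, with medians of -2.09, 2.56 and 2.00. In blastocysts 24 of them fell with a median of -0.55, beside 26.4% of all genes and a median of -0.22. With scaling to the hybridization controls the median of the cytosolic group turned to 0.53, with 18 higher. Of all genes 53.3% were then higher, with a median of 0.86, so the cytosolic median stayed under that of all genes. At the 2-cell stage the members had 27 of 74 higher (36.5%), the cytosolic group 39 of 43 (90.7%) and the oxidative phosphorylation group 32 of 76 (42.1%), beside 22.0% of all genes. The groups were compared by these counts and medians only.

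**Figure D5:**
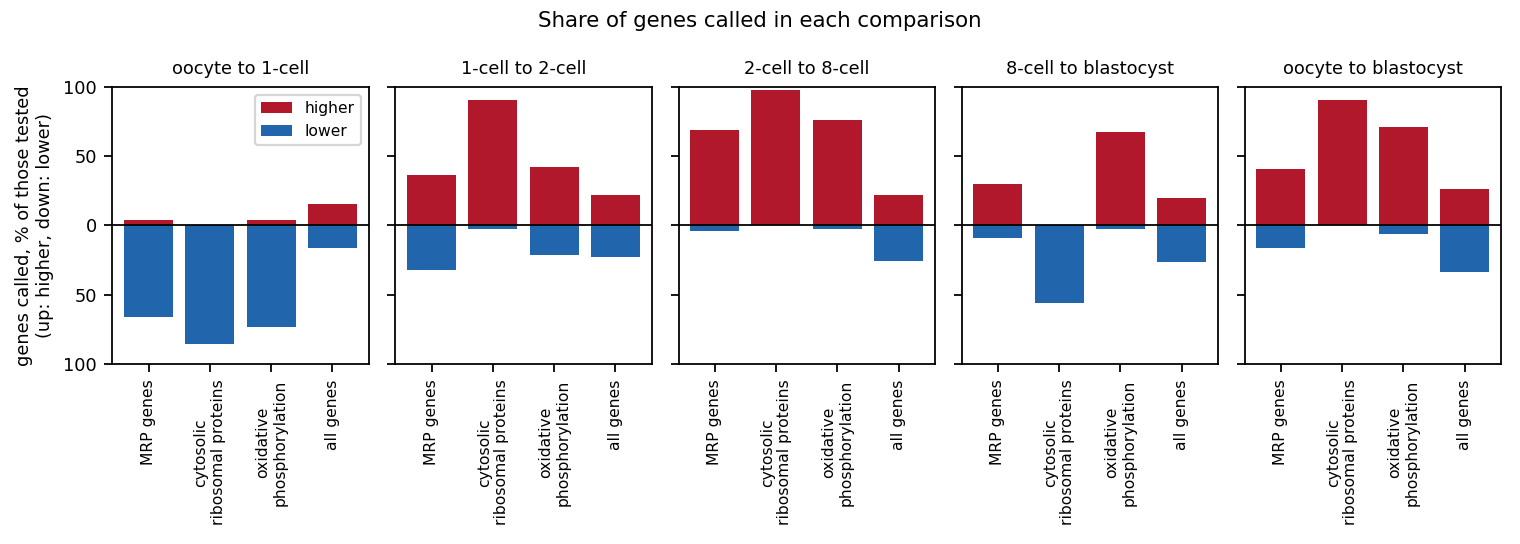
Percent of genes called higher (upward bars) and lower (downward bars) at an adjusted p under 0.05 in each comparison, for the 74 mitochondrial ribosomal protein genes (MRP genes), 43 cytosolic ribosomal protein genes, 76 oxidative phosphorylation genes and all 10251 genes tested. All 3 groups show long downward bars at the 1-cell stage and long upward bars at the 8-cell stage. From the 8-cell stage to the blastocyst the cytosolic group shows only downward bars. These turn upward with scaling to the hybridization controls, where 53.3% of all genes are higher and 1.6% lower.

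Probe sets of a gene did not always give the same call. Of the 33 genes with several probe sets, all probe sets agreed for 14, 19, 23, 16 and 20 genes in the 5 comparisons. Opposite calls occurred for Mrps11 from the 1-cell to the 2-cell stage (0.82 and -1.41) and from oocyte to blastocyst (0.72 and -0.66), and for Mrps9 from the 8-cell stage to the blastocyst. Counted over all 118 probe sets, 7 were higher and 64 lower, 36 and 36, 81 and 5, 29 and 13, and 48 and 18 in the 5 comparisons in order. For 8 genes the brightest probe set is of a kind that can bind related transcripts. Without these 8, 66 genes had 3 higher and 42 lower, 22 and 23, 44 and 3, 20 and 7, and 27 and 12 in the same order.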

How the data were processed

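RNA of 20 samples was measured on 20 arrays, 4 for each of 5 stages, with stages taken from the sample titles. The values are the deposited probe set intensities on a linear scale, scaled by the authors so that the trimmed mean is 150.1 on each array. The software behind them is not given in the sources used here, and no detection calls were used. Gene names came from the platform annotation: of 22690 probe sets, 20380 have 1 symbol, 691 have several, 1555 have none, and 64 are controls.

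From these values log2(intensity + 12.15) was computed, 12.15 being the pooled median intensity of 48.6 divided by 4. Probe sets above 33, the pooled percentile 40, on at least 4 arrays were tested (17193 probe sets, 10251 genes). limma 3.58.1 in R 4.3.3 (lmFit, eBayes with trend) was fitted to all 20 arrays with the stage as the only factor and 15 residual degrees of freedom, with Benjamini-Hochberg adjustment over all probe sets tested and calls at an adjusted p under 0.05. The fit was tested on simulated data. The number of arrays limits the precision.

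Genes named were, per comparison, the 6 largest called rises and the 6 largest called falls of the representative probe sets. Added whatever their values were the Mrps18 relatives, the stalk proteins Mrpl10, Mrpl11 and Mrpl12, Mrps12, Mrpl45, Mrpl23, Mrps30 and Mrpl58, and the proteins without such a symbol. Of the related lists, genes were taken from the largest called rise and fall of each comparison, and Mrpl1 and the examples of courses and of disagreeing probe sets were chosen after their values were seen. Members and lists were chosen with earlier results of these data known.

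The settings varied were the scaling (quantile normalization, centring each array on its median, or using 18 hybridization control probe sets), pseudocounts of 3.04 and 48.6, no filter and a stricter filter of 71.8, at least 2-fold calls, the mean over probe sets, 1 array left out at a time, and the replicate number as a block. Each comparison was also fitted on its 2 stages alone, and the fit was repeated without the intensity trend. No 2 of the 190 pairs of arrays held identical values. Deviations from the stage means of same-numbered arrays of different stages correlated at 0.01 on average (-0.16 to 0.18, 40 pairs). Differently numbered arrays gave -0.004 (-0.21 to 0.28, 120 pairs). No pairing by number was seen, but this check cannot exclude shared collections or amplifications, which the labels do not give.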

Additional observations from a re-analysis of the deposited data

Results flagged for a closer look

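Among 240 groups of 4 arrays, 48 named genes at 5 stages, 11 held an array whose gap to the nearest of the others took more of the range of the group than Dixon's critical value for 4 arrays. Chance gives about 1 in 20 such groups. Of these arrays 4 were high and 7 low.

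In oocytes, Dap3 read 919.4 on array 1 against 1030 to 1044 on the others. Mrpl19 read 7.1 there against 5.0 to 5.3, all of them under the filter threshold of 33. Mrps25 read 1269 on array 4 against 972.0 to 1008. At the 1-cell stage, Mrps34 read 12.5 on array 3 against 68.0 to 74.3.

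At the 2-cell stage, Mrps34 read 77.7 on array 1 against 91.2 to 92.3, and Ptcd3 157.5 on that array against 200.4 to 205.8. Mrpl3 read 185.8 on array 2 against 196.2 to 197.4. Dap3 read 145.5 on array 3 against 198.7 to 209.5, and Mrpl50 read 119.3 on array 4 against 81.3 to 87.1. In blastocysts, Mrpl51 read 1731 on array 1 against 1278 to 1324, and Mrpl58 read 294.6 on array 3 against 377.3 to 385.4.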

How the results depend on the processing

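Of the counts of called members under other settings, 119 stayed within 1.5 times the reported count and 12 did not. With scaling to the hybridization controls, 0 were higher at the oocyte to 1-cell step (0 at an unadjusted p under 0.05 in limma), 11 lower at the 1-cell to 2-cell step, 25 higher and 8 lower at the 2-cell to 8-cell step, and 64 higher and 0 lower at the 8-cell to blastocyst step (0 lower unadjusted). Centring on the array median left 1 lower at that last step. At least 2-fold, 0 were higher at the first step (4 in limma at an unadjusted p under 0.05 with no limit on size), 11 lower at the second, 1 lower at the third, and 10 higher and 1 lower at the fourth. The median change at the 1-cell to 2-cell step turned to -0.01 with quantile normalization, -0.02 with centring and -0.03 with the mean over probe sets. Sign changes were counted only for named genes called with the deposited values, with the other setting or with both. Among these the hybridization controls turned the sign of 4 at the first step, Mrpl45 (-0.09), Mrpl3 (-0.41), Mrpl44 (-0.49) and Mrpl10 (-0.79). At the fourth they turned 9: Mrpl22 (0.04), Mrpl20 (0.32), Mrps7 (0.38), Mrpl34 (0.42), Mrps6 (0.42), Mrpl50 (0.47), Mrps30 (0.48), Mrpl58 (0.94) and Gadd45gip1 (0.99). Named genes without a call in either fit could also turn and are not in these counts. The cause was not tested.

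With 1 array left out at a time, 3 to 3 members were higher and 45 to 51 lower at the first step, 25 to 28 and 20 to 25 at the second, 50 to 53 and 3 to 4 at the third, 17 to 23 and 5 to 9 at the fourth, and 28 to 33 and 12 to 13 from oocyte to blastocyst, while 73 to 74 differed among the stages. The medians ran from -1.11 to -0.96, 0.02 to 0.22, 0.92 to 1.01, 0.21 to 0.30 and 0.30 to 0.42. With the replicate number as a replicate block the counts were 3 and 51, 29 and 24, 51 and 3, 22 and 8, and 30 and 12. Levels under the filter threshold, as for Mrpl43, Mrps5 and Mrpl19 at their lowest stages, limit those changes to the depth of signal above the floor of the array.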
